A study of Caenorhabditis elegans with 3 samples.

Results

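Lysozymes and saposin-like proteins are the enzymes and peptides with which the nematode Caenorhabditis elegans breaks up bacteria, both as food and as pathogens. The genes were taken by name, as every probe set with a single gene symbol beginning lys-, ilys- or spp- and a number. That gave 40 of the 22625 probe sets on the array, for 34 of the 17118 genes with a probe set of their own: 10 lys, 6 ilys and 18 spp genes. RefSeq names 46 genes in this way, and the others were not analysed here except where a probe set reads them together with another gene.

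RNA came from whole larvae of the wild-type strain N2 (Bristol), labelled as the first larval stage (L1), whose parents were grown at 20 °C on Escherichia coli OP50 and whose cultures were synchronised by bleaching. There were 3 groups of 1 Affymetrix array each: untreated control larvae, larvae sprayed through a steel needle held at high voltage (bio-electrospray, which turns a suspension of living material into a charged jet), and larvae kept for 24 h at 30 °C as a positive control for stress (heat shock). No mutation or transgene is named for any group. The labels give no age at collection beyond the stage, so 24 h at 30 °C and any difference in age cannot be told apart, and in RNA from whole animals fewer cells of a type and less RNA per cell cannot be told apart either.

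Lysozymes cut the peptidoglycan of bacterial cell walls. The lys genes encode lysozymes of a type shared with protists, and the ilys genes encode the invertebrate type. Saposin-like proteins, which include the caenopores, share a compact fold held by disulphide bonds, and those studied insert into bacterial membranes and open pores in them. Many genes of these families are active in the intestine, where ELT-2, a GATA transcription factor, drives most gut genes, and several are known targets of the p38 MAP kinase, DBL-1 (TGF-β type) and insulin pathways.

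The deposited values are GCRMA levels per probe set on the log2 scale. A difference below is the log2 level on one array minus that on another, so 1 stands for 2-fold. With 1 array per group no test was possible, no p-value is given, and the number of arrays limits the precision. A probe set below the median of its array (3.15 control, 3.16 bio-electrospray, 3.19 heat shock) lies near the floor of these values, where small differences carry little information. Where a gene had several probe sets, the brightest over the 3 arrays stood for it. Levels of different probe sets do not rank amounts of RNA.

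The heat-shocked larvae carried the textbook sign of their treatment, with the small heat shock protein gene hsp-16.2 at 3.03 on the control array, 3.54 after bio-electrospray and 9.55 after heat shock. The 18 hybridization spike-in probe sets, which read transcripts added during the assay, differed from control by a median of −0.19 after bio-electrospray and −0.53 after heat shock. Setting the arrays equal on those spike-ins raised the median difference of all genes to 0.19 for bio-electrospray and 0.51 for heat shock, against 0.01 and −0.02 in the values as deposited, and the members whose call depends on it are named beside their values.

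After heat shock a few members lay far from control, more of them lower than higher. The invertebrate lysozyme gene ilys-5 and the saposin-like gene spp-4 were far lower, spp-13, spp-16 and lys-4 were lower by smaller margins, and spp-18 and spp-24 were higher. After bio-electrospray no member was 2-fold apart from control, beside 0.152% of all genes, and lys-4 came closest. Of the 34 genes, 2 (5.88%) were higher by 2-fold or more on the heat shock array, close to the 4.69% of all 17118 genes. Another 5 (14.7%) were lower by as much, beside 4.33% of all genes. The median difference was −0.03 over the members and −0.02 over all genes. On the spike-in scale 5 members were higher and 2 lower, beside 11.5% and 2.20% of all genes. The members moved with all genes there, with medians of 0.50 and 0.51. The 2 that stayed lower were ilys-5 and spp-4. On that scale every member that had been less than 0.53 below control after heat shock changed sign. Above the array median on at least 1 array these were lys-1, lys-6, lys-7, spp-6, spp-7 and spp-31, and 9 dimmer members turned as well. Among the 7936 genes above the array median on all 3 arrays, as 20 of the members were, 7.04% were higher and 7.18% lower in the values as deposited.

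**Figure D1:**
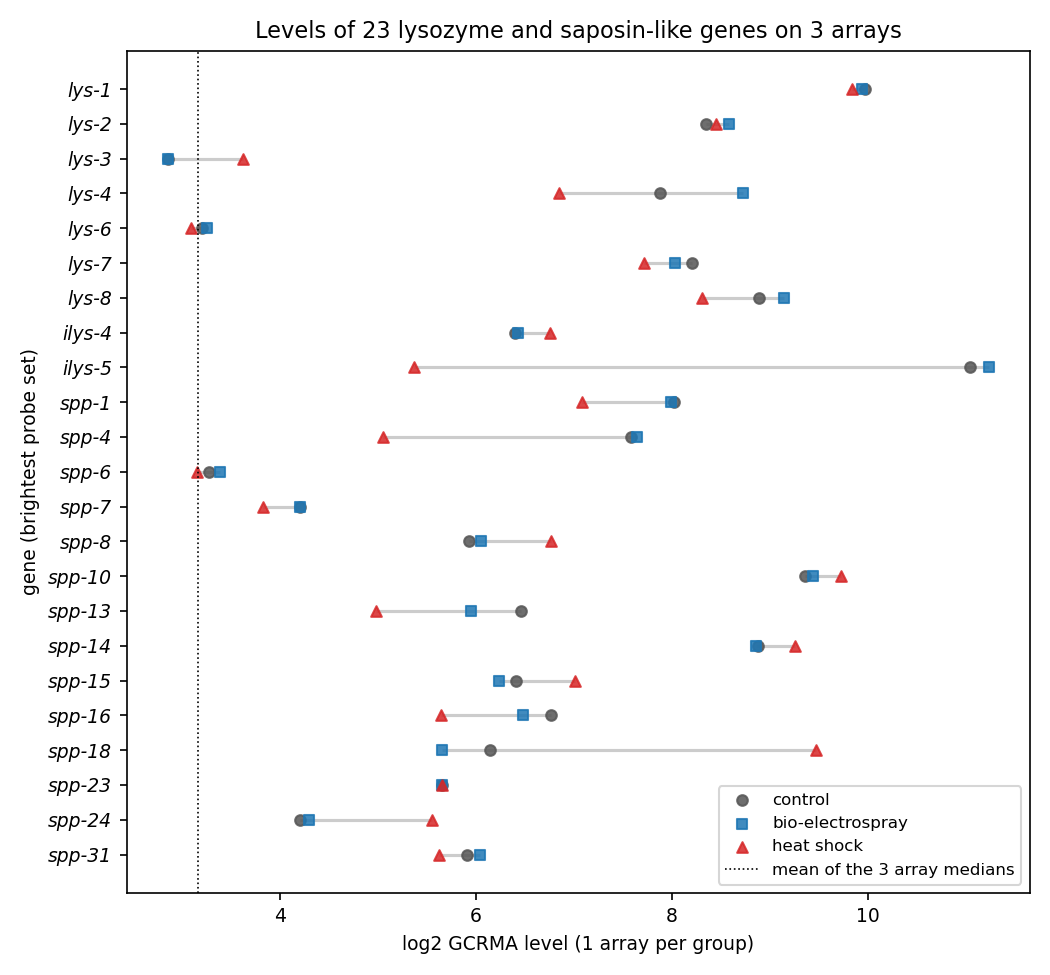
Log2 GCRMA level (horizontal axis) of the 23 member genes that lay above the array median on at least 1 array, with 1 point per array: control (grey circle), bio-electrospray (blue square) and heat shock (red triangle); there are no replicates and so no error bars. The control and bio-electrospray points lie close together in most genes, while the heat shock point of ilys-5 (5.37) and of spp-4 (5.05) lies far to the left and that of spp-18 (9.47) far to the right.

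Among the invertebrate-type lysozymes the signal was carried by ilys-5. Its brightest probe set stood at 11.05 on the control array, 11.24 after bio-electrospray and 5.37 after heat shock. It was bright on the first 2 arrays and, although still above the array median, 51.0-fold lower on the heat shock array than on the control array. The other 2 probe sets of ilys-5 read 11.05, 11.08 and 5.44, and 10.99, 11.14 and 5.17, in the same order of arrays. All 3 probe sets thus differed alike, by −5.60 to −5.82, but the name of each marks it as possibly shared between transcripts, so they are not independent views of 1 gene. Of the 17118 genes only 1 other had a difference from control as low as that of ilys-5 (−5.67).

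The remaining ilys genes were quiet. The probe set of ilys-4 read 6.40 on the control array, 6.44 after bio-electrospray and 6.76 after heat shock, a difference of 0.36 for heat shock. The gene ilys-3, whose product is known to act in the gut and pharynx in breaking up ingested bacteria, was listed at the same 2.67 on all 3 arrays, below the array median. The probe sets of ilys-1, ilys-2 and ilys-6 also lay below the median on all 3 arrays, and their differences from control ran from −0.09 to 0.02.

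In the protist-type lysozymes 5 of 10 genes lay above the median on all 3 arrays, and lys-4 varied most. The level of lys-4 was 7.88 on the control array, 8.73 after bio-electrospray and 6.85 after heat shock. Both treatments thus departed from control, in opposite directions: it was 1.80-fold higher after bio-electrospray and 2.04-fold lower after heat shock. Between the treated arrays it was 3.67-fold lower after heat shock. Only 32 of 17118 genes, lys-4 included, had a difference as high as 0.85 between bio-electrospray and control, and 720 had one as low as −1.03 between heat shock and control. On the spike-in scale lys-4 was past 2-fold after bio-electrospray (1.04) and no longer so after heat shock (−0.50), and the heat shock call was also lost with an offset of 16 on the linear scale (−0.94).

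The gene lys-8, known as a lysozyme gene under the DBL-1 pathway, showed the same order at a smaller size, with 8.89 on the control array, 9.14 after bio-electrospray and 8.31 after heat shock. Its differences from control were 0.25 and −0.58, both under 2-fold. The level of lys-7, a much studied defence gene and a target of the FOXO factor DAF-16, was 8.21 on the control array, 8.03 after bio-electrospray and 7.72 after heat shock. Both treated arrays were below control, by −0.18 and −0.49, but not on the spike-in scale, where the differences were 0.01 and 0.04. The pair lys-1 and lys-2, known for induction by bacterial infection, was close to level. For lys-1 the arrays read 9.97 (control), 9.94 (bio-electrospray) and 9.84 (heat shock), and for lys-2 they read 8.35, 8.58 and 8.46, so that no difference in either gene exceeded 0.24.

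The dim lys genes differed little. The probe set of lys-3 read 2.86 on both the control and the bio-electrospray arrays and 3.63 after heat shock, where alone it passed the array median. Its difference of 0.77 was under 2-fold, and it was 1.30 on the spike-in scale. The level of lys-6 lay at the median, with differences from control of 0.05 and −0.11, and lys-5, lys-9 and lys-10 were below the median on all 3 arrays, with differences between −0.02 and 0.04. A probe set that reads lys-5 and lys-6 together stood at 2.78, 3.25 and 2.65 on the control, bio-electrospray and heat shock arrays.

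**Figure D2:**
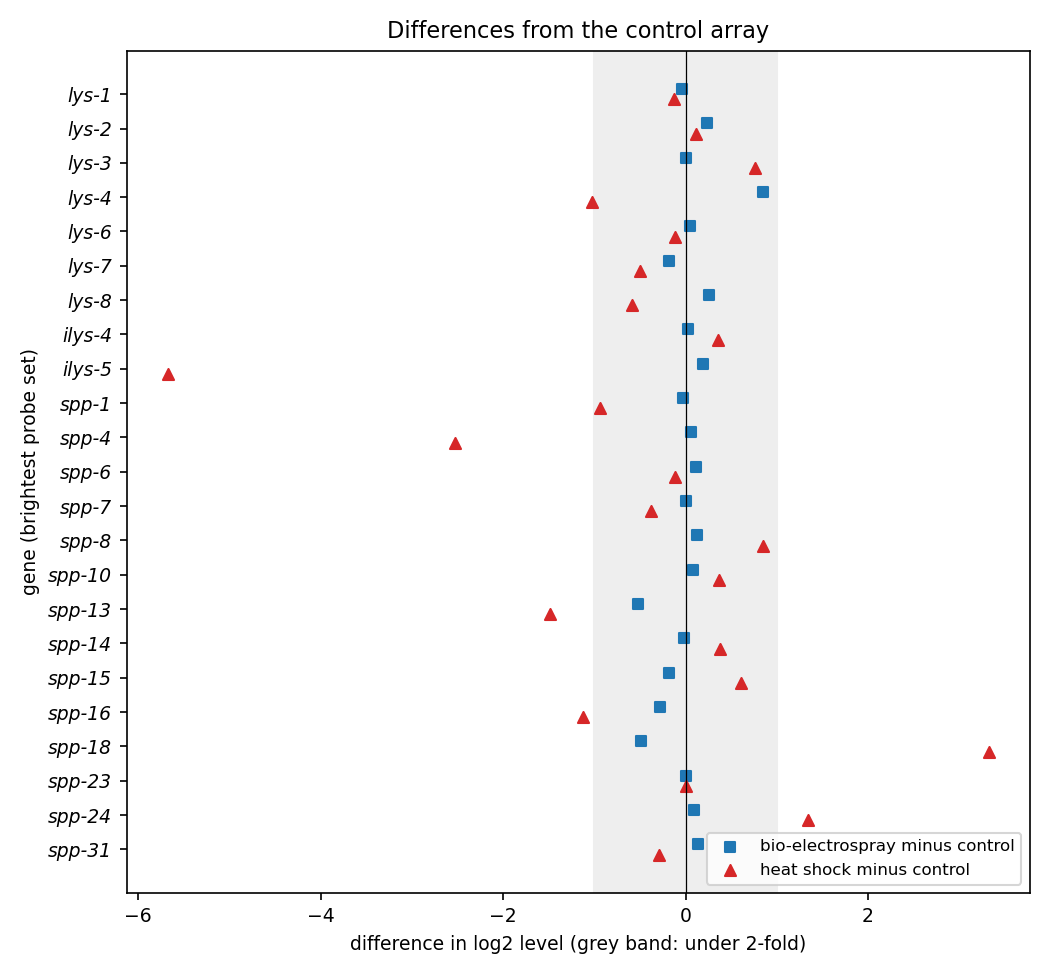
Difference in log2 level from the control array (horizontal axis) for the same 23 genes, after bio-electrospray (blue squares) and after heat shock (red triangles), with differences under 2-fold shaded grey. Every square lies in the shaded band, with lys-4 (0.85) nearest to its right edge. Of the triangles, those of ilys-5, spp-4, spp-13, spp-16 and lys-4 lie to its left and those of spp-18 and spp-24 to its right. Both sets of points share the 1 control array.

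The saposin-like genes, 18 of the 34 members, held 5 of the 7 that were 2-fold apart after heat shock. Of the 18, 2 (11.1%) were higher and 3 (16.7%) lower, beside 4.69% and 4.33% of all genes. The probe set of spp-18 read 6.15 on the control array, 5.66 after bio-electrospray and 9.47 after heat shock. It was far higher on the heat shock array, 3.32 above control, and slightly lower after bio-electrospray (−0.49). Of 17118 genes, 40, spp-18 included, had a difference from control at least as high. The gene spp-24 read 4.21, 4.31 and 5.55 on the control, bio-electrospray and heat shock arrays, 2.54-fold higher after heat shock. Its levels were low, and with an offset of 16 on the linear scale, where dim probe sets count for less, spp-24 was at 0.87.

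On the lower side, spp-4 stood at 7.59 on the control array, 7.65 after bio-electrospray and 5.05 after heat shock. The first 2 arrays were alike and the heat shock array was 5.78-fold lower than control. The level of spp-13 was 6.47 on the control array, 5.95 after bio-electrospray and 4.98 after heat shock. Both treated arrays were below control, by −0.52 and −1.48, and the heat shock difference was −0.95 on the spike-in scale. For spp-16 the arrays read 6.77, 6.49 and 5.65, which again placed both treated arrays below control, by −0.28 and −1.12. The heat shock call for spp-16 was lost on the spike-in scale (−0.59) and with the offset of 16 (−0.92).

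The caenopore gene spp-1, an antibacterial peptide gene and a known DAF-16 target, lay just short of 2-fold. Its brighter probe set, marked by its name as possibly shared between transcripts, read 8.02 on the control array, 8.00 after bio-electrospray and 7.08 after heat shock. That is a difference of −0.94. The second probe set of spp-1, whose name has no such mark, lay near the floor, at 2.21, 2.23 and 2.20, and carried no difference. A probe set that reads spp-2 and spp-3 together stood at 8.99, 9.07 and 8.63, lower by −0.36 after heat shock. The probe set shared by spp-5, whose product is a pore-forming caenopore, and T08A9.13 was listed at exactly 10.41 on all 3 arrays.

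Several bright saposin-like genes were somewhat higher after heat shock, all under 2-fold. The 2 probe sets of spp-8 read 5.93 and 5.64 on the control array, 6.06 and 5.67 after bio-electrospray, and 6.77 and 6.45 after heat shock. They differed alike, by 0.85 and 0.81 after heat shock, and the brighter one by 1.38 on the spike-in scale. The level of spp-15 was 6.42 on the control array, 6.24 after bio-electrospray and 7.02 after heat shock, a difference of 0.60 (1.14 on the spike-in scale), and that of spp-14 was 8.88, 8.86 and 9.26.

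The 3 probe sets of spp-10 did not move together. The brightest probe set of spp-10 read 9.36 on the control array, 9.44 after bio-electrospray and 9.72 after heat shock, and another read 8.64, 8.60 and 8.95. These were higher by 0.36 and 0.31 after heat shock, whereas the dimmest read 6.94, 7.04 and 6.38 and was lower by −0.57. The direction for spp-10 therefore depends on the probe set, and no size reached 2-fold.

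**Figure D3:**
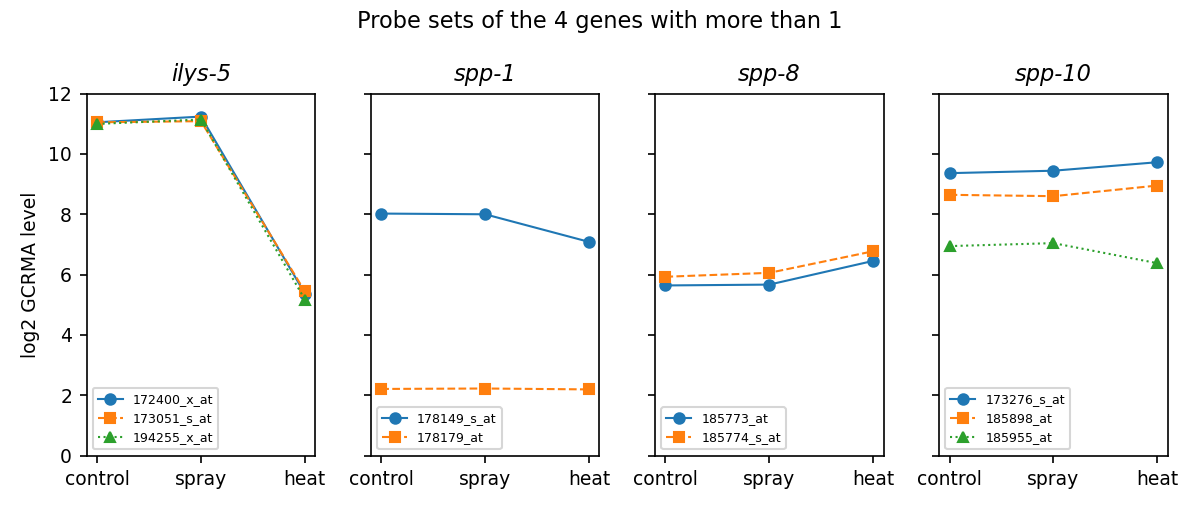
Log2 GCRMA level (vertical axis) of every probe set of the 4 member genes with more than 1, on the control, bio-electrospray (spray) and heat shock (heat) arrays, with a line per probe set. The 3 lines of ilys-5 fall together from about 11 to between 5.17 and 5.44, the 2 of spp-8 run in parallel, 1 line of spp-1 stays at the floor, and the lowest line of spp-10 runs opposite to the other two after heat shock.

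The rest of the saposin-like genes varied little. The gene spp-31 read 5.91, 6.05 and 5.62 on the control, bio-electrospray and heat shock arrays, spp-7 was lower by −0.38 after heat shock and equal on the first 2 arrays, and spp-6 lay at the median (3.28, 3.39 and 3.16). The value of spp-23 was exactly 5.65 on all 3 arrays. The probe sets of spp-11, spp-12, spp-19 and spp-27 were below the median on all 3 arrays, among them spp-12, known for its activity in a pair of pharyngeal neurons. Differences from control in these ran from −0.08 to 0.04. Probe sets that read spp-9 with spp-21, spp-22 with ZK867.2 and spp-30 with twk-44 also stayed below 3, the highest being 2.97 for spp-22 with ZK867.2 on the heat shock array.

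Taking the family by brightness, 20 of the 34 genes lay above the array median on all 3 arrays, 3 on some and 11 on none. The 11 dim genes differed from control by −0.09 to 0 after heat shock and by 0 to 0.04 after bio-electrospray. Outside these, the 16 members under 2-fold after heat shock lay between −0.94 (spp-1) and 0.85 (spp-8).

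Bio-electrospray was compared with control to ask how far spraying disturbs the larvae. The median difference was 0.02 over the members and 0.01 over all genes. The highest members were lys-4 (0.85), lys-8 (0.25), lys-2 (0.24), ilys-5 (0.19) and spp-31 (0.13). The lowest were spp-13 (−0.52), spp-18 (−0.49), spp-16 (−0.28), spp-15 (−0.18) and lys-7 (−0.18), and the last pair changed sign on the spike-in scale. For scale, the middle 95% of all genes lay between −0.287 and 0.234. Above that range were lys-4, lys-8 and, at its very edge, lys-2 (0.236), and below it spp-13 and spp-18, while spp-16 (−0.284) lay just inside. The range was taken over all genes, including dim ones and the 4678 equal on both arrays. None was taken over bright genes alone, so it does not show whether these members were unusual among bright genes.

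Heat shock was also set against bio-electrospray, which uses the same heat shock array and is no second measurement of it. In this comparison 2 members were higher by 2-fold or more and 3 lower, where 4.64% and 4.08% of all genes were so. The higher ones were spp-18 (3.81) and spp-24 (1.25) and the lower ones ilys-5 (−5.86), spp-4 (−2.59) and lys-4 (−1.88). The genes spp-13 (−0.97) and spp-16 (−0.84) fell short of 2-fold here, since their bio-electrospray levels lay between the control and heat shock levels.

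**Figure D4:**
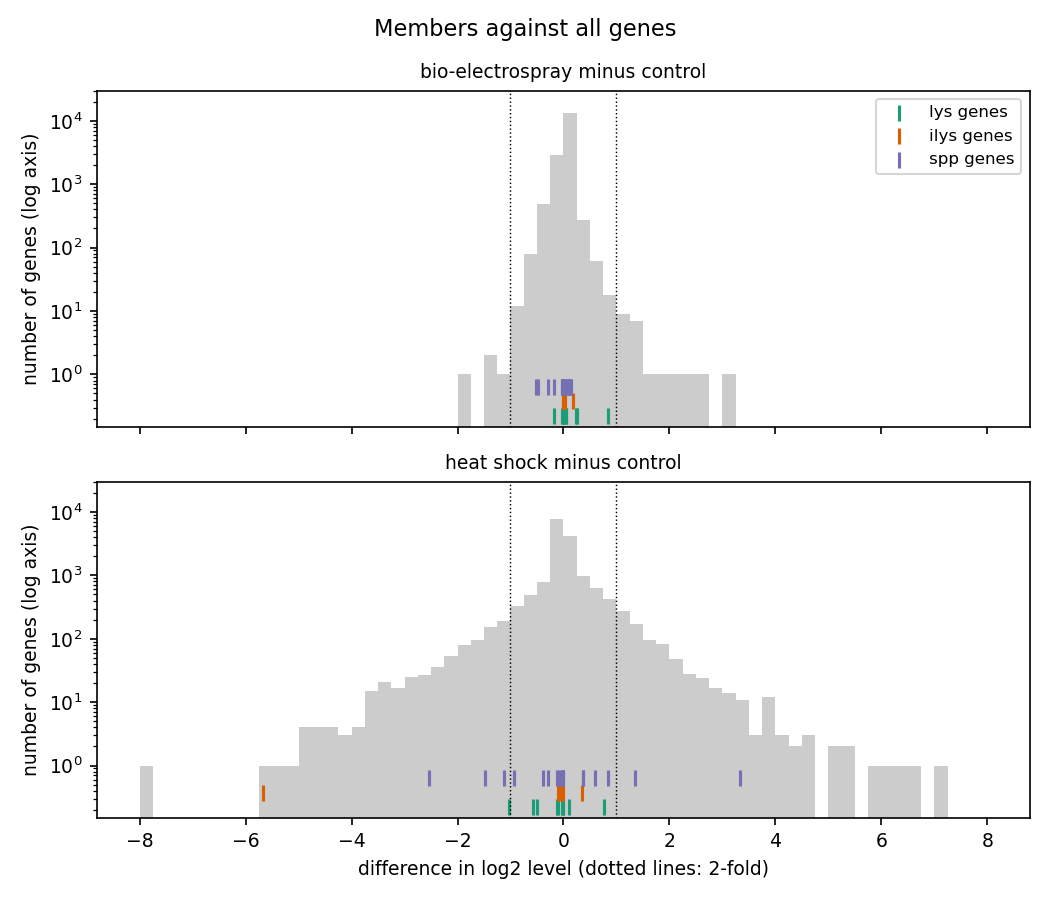
Number of genes (vertical, log axis) by difference in log2 level from control (horizontal axis, in bins of 0.25) for all 17118 genes, after bio-electrospray (upper) and heat shock (lower), with dotted lines at 2-fold. Coloured ticks mark the 34 member genes: all lie within the lines in the upper panel, whereas in the lower panel ilys-5 lies near the left end of the distribution and spp-18 in its right tail.

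Members that are neighbours on a chromosome did not always share the same difference after heat shock. Several of the probe sets compared lay at or below the array median, where a fall could hardly show. By RefSeq's gene order, lys-1, lys-2 and lys-3 follow each other on chromosome V with no other protein-coding gene between them. Their differences were −0.13, 0.11 and 0.77, with lys-3 below the median on the control array. The run of lys-4, lys-5 and lys-6 on chromosome IV held −1.03 for lys-4. Beside it lys-6 (−0.11) lay at the median and lys-5 below it on all 3 arrays. On chromosome X spp-4 (−2.53) stood next to spp-6 (−0.12), which lay at the median. With 1 gene between them on chromosome IV, spp-8 (0.85) and spp-10 (0.36) were both higher by their brightest probe sets. A run of ilys-1, ilys-2 and ilys-3 on chromosome IV was below the array median throughout, as were spp-19 and spp-27 on chromosome V.

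Of 28 immune signalling and transcription genes measured, 5 were at least 2-fold higher on the heat shock array and none lower, beside 4.69% and 4.33% of all genes, with a median of 0.32. With other scalings 4 to 12 of them were higher and none lower, the 12 on the spike-in scale, where 11.5% of all genes were higher. They included tir-1 (1.44), the adaptor at the head of the p38 cascade, vhp-1 (1.31), a phosphatase that restrains MAP kinases, pqm-1 (1.17), a zinc finger factor opposed to DAF-16, and zip-2 (1.11), a bZIP factor of the response to infection. The p38 kinase gene pmk-1 differed by 0.24, daf-16 by 0.25, and elt-2 by −0.13; these 3 are given for their roles and were chosen after their values were seen. Of all genes above the median on the control or heat shock array, as all but daf-2 and egl-5 of the list were, 8.9% were higher after heat shock and 8.24% lower. For heat shock against bio-electrospray only 2 of the 28 were higher and none lower, beside 4.64% and 4.08% of all genes. None of the 28 was 2-fold apart after bio-electrospray, beside 0.152% of all genes, and the median was 0.01.

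Few other effector and lysosomal genes were 2-fold apart after heat shock, where 4.69% of all genes were higher and 4.33% lower. Of 9 further antimicrobial genes, 7 lay below the median on all arrays, where a fall could hardly show. The defensin-like gene abf-2 alone was 2-fold higher after heat shock, at 4.14 against 2.87 on the control array (1.28). That call was lost with the offset of 16. Of 30 lysosomal genes only gana-1, which encodes an α-galactosidase type enzyme, was 2-fold apart after heat shock (1.80), and the list's median was 0.00. On the spike-in scale the lysosomal median was 0.54 and 5 were higher, beside 11.5% of all genes. After bio-electrospray no gene of either list was 2-fold apart, beside 0.152% of all genes.

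Marker lists of tissues were read beside these values, as deposited unless said otherwise, and their counts stand beside 4.69% of all genes higher and 4.33% lower after heat shock (11.5% and 2.20% on the spike-in scale). All 16 intestinal markers measured passed the array median on at least 1 array. The gut markers ges-1 (−1.38) and pept-1 (−1.26) were 2-fold lower after heat shock and ftn-1 (1.64) higher, around a median of −0.06. The offset of 16 left 1 of the lower genes and none higher. On the spike-in scale the median was 0.47 and neither of the lower genes stayed 2-fold apart. The summed linear level of the list was 9412 on the control array, 9836 after bio-electrospray and 9169 after heat shock. The brightest of the list, asp-1 (11.87, 11.87 and 12.18 in log2), weighed most in that sum and was higher after heat shock. Of 12 pharyngeal markers, of which hlh-6, phat-1, phat-3 and pqn-8 lay below the median on all arrays, myo-1 (−1.29) and tnt-4 (−1.01) were lower and phat-5 (1.07) higher after heat shock, whereas on the spike-in scale none was 2-fold lower and with the offset of 16 none was higher and 1 lower. The summed level of the pharyngeal list was 892, 862 and 546 on the control, bio-electrospray and heat shock arrays.

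Of 7 germline markers 5 were 2-fold lower after heat shock, led by wago-1 (−3.32), gld-1 (−2.34), cpg-2 (−2.19) and pgl-3 (−1.87). The summed level of the germline list was 842, 813 and 430 on the control, bio-electrospray and heat shock arrays. Its brightest gene, glh-1 (9.10, 9.01 and 8.49 in log2), weighed most in that sum and was under 2-fold apart after heat shock (−0.61). With other scalings 3 to 5 germline markers were 2-fold lower and none higher. Only nos-2 of that list lay below the median on all arrays. Neuronal markers held 2 of 9 higher, egl-21 (1.85) and egl-3 (1.33), or 5 on the spike-in scale, with sums of 1050, 1006 and 2216 and with unc-31 and rgef-1 below the median throughout.

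Of 3 coelomocyte markers, lgc-26 (1.71) and cup-4 (1.66) were higher after heat shock and unc-122 lay below the median throughout, with sums of 25.1, 25.002 and 70.5. With the offset of 16 no coelomocyte marker was 2-fold apart. Hypodermal markers went both ways, with grd-3 (1.91) and lin-26 (1.03) higher and rol-6 (−1.74) and dpy-13 (−1.21) lower of 8 and a median of 0.20. On the spike-in scale 4 of them were higher and 1 lower, and with median centring or the offset of 16 only 1 was higher. Their summed level, 9842, 9712 and 5220, was carried mostly by dpy-13 (13.05, 13.03 and 11.84 in log2). In body wall muscle only unc-22 (−2.07) of 7 markers was 2-fold apart (1 higher and 1 lower on the spike-in scale), with sums of 8279, 8243 and 7491. No marker of any list was 2-fold apart after bio-electrospray, beside 0.152% of all genes, a share at which lists this short would seldom hold any. The part of these tissues in the differences of the lysozyme and saposin-like genes was not tested.

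**Figure D5:**
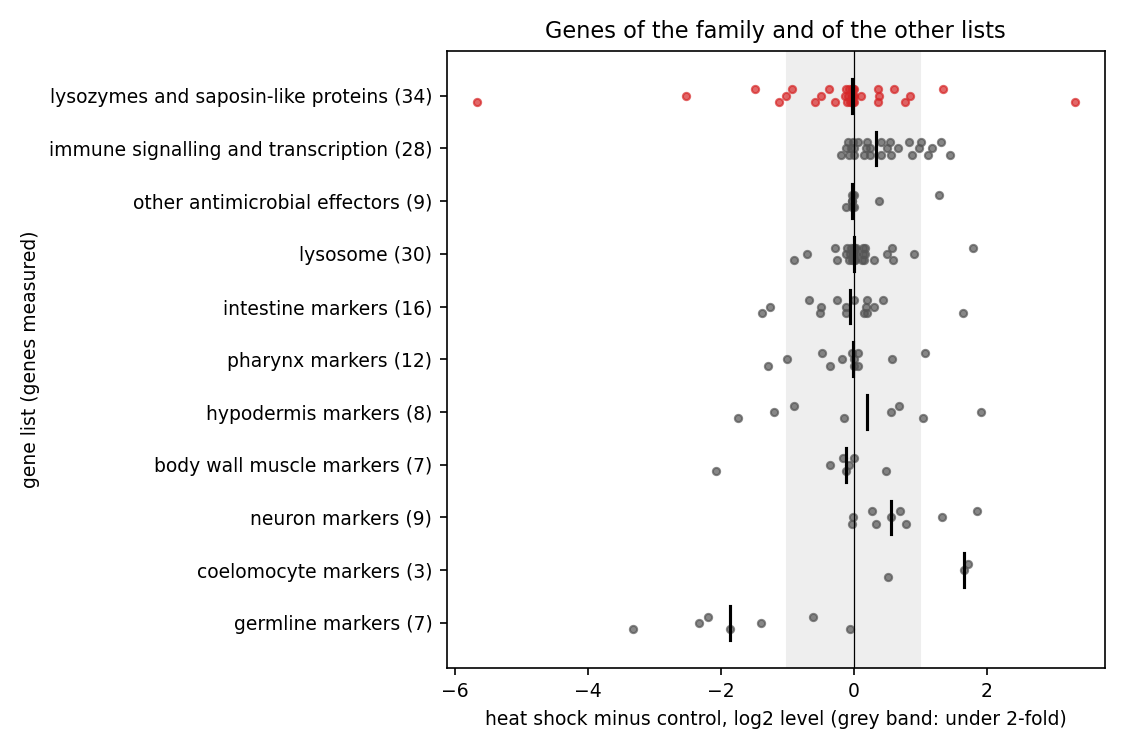
Heat shock minus control difference in log2 level (horizontal axis) for each gene of the lysozyme and saposin-like family (red) and of the other lists (grey), with the number measured in brackets, a black bar at each median and differences under 2-fold shaded. The family's median lies at −0.03 while its members spread from −5.67 to 3.32, wider than any other list drawn, and the germline markers lie mostly to the left.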

How the data were processed

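The authors deposited 1 level per probe set and array, made with GCRMA per the submitters' processing notes; its version and options are not given in the sources used here. The deposited values were taken as log2 because GCRMA writes log2 and they ran from 1.81 to 13.96. GCRMA in its usual form models background by probe sequence and gives the probes of all arrays the same distribution before they are summarised. The medians over probe sets still differed slightly between arrays (3.15, 3.16 and 3.19). Differences are therefore relative to the rest of an array, and dim probe sets share a floor.

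Probe sets were named by the platform annotation (20766 with 1 symbol, 887 with several, 972 with none), and all 34 member genes were found in RefSeq (assembly WBcel235), which also gave gene order. Log2 levels were subtracted and genes at least 2-fold apart (a difference of 1) were counted without a filter on level, since such a filter admits genes through the array on which they are high. The promoter motif search listed in the design was not run.

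Members and lists were chosen with earlier results of these data known. Every member may be named, with levels on all arrays for those 2-fold apart, for the 5 highest and 5 lowest after bio-electrospray and for the 10 brightest on the control array; other lists are named by up to 4 members at least 2-fold apart. The alternatives were quantile normalization, median centring, an offset of 16, 2 level filters, unshared probe sets, the mean over probe sets, thresholds of 1.5-fold and 3-fold and, chosen after seeing the data, spike-in scaling. The number of columns of no sample was 0. Python 3.11.15, numpy 2.4.6, pandas 2.3.3 and matplotlib 3.10.9 were used.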

Additional observations from a re-analysis of the deposited data

How the results depend on the processing

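Quantile normalization, median centring, both level filters and the mean over probe sets left every count of members within 1.5 times its reported value and every member median within 0.204, the median range between probe sets of 1 gene. With 16 added to the linear levels 1 member was higher and 3 lower for heat shock against control, beside 2.31% and 2.38% of all genes. For heat shock against bio-electrospray 1 was higher and 3 lower, beside 2.15% and 2.24%. The calls lost were those of lys-4, spp-16 and spp-24. Probe sets not shared between transcripts left 26 genes, without ilys-5 and lys-4. Of these 2 were higher and 3 lower for heat shock against control, beside 4.51% and 3.5% of 13618 genes. For heat shock against bio-electrospray 2 were higher and 1 lower, beside 4.49% and 3.25%. At 1.5-fold 1 member was higher after bio-electrospray, beside 0.409% of all genes. For heat shock against control 5 were higher and 6 lower, beside 9.5% and 7.99%. For heat shock against bio-electrospray 5 were higher and 7 lower, beside 9.77% and 7.52%. At 3-fold 1 was higher and 2 lower for heat shock against control, beside 1.89% and 2.11%. For heat shock against bio-electrospray 1 was higher and 3 lower, beside 1.76% and 1.94%. On the spike-in scale 1 member was higher after bio-electrospray, beside 0.193% of all genes. For heat shock against control 5 were higher and 2 lower (median 0.50), and all genes moved with the scale, 11.5% then being higher and 2.20% lower. For heat shock against bio-electrospray 5 were higher (median 0.27), beside 8.69% of all genes. There ilys-5, spp-4 and lys-4 stayed 2-fold lower, beside 2.64% of all genes. No named member with a 2-fold call reversed. No paired analysis was possible because each group has 1 array. Differences near the floor and any spread between cultures could not be measured.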

Other observations

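Exactly equal values on all 3 arrays were not confined to the floor. They were found in 3 of the 40 member probe sets, those of ilys-3, spp-11 and spp-23, and in 2215 of all 22625 probe sets. By mean level over the arrays, 7.80% of probe sets below 3, 14.0% of those from 3 to 5, 9.06% of those from 5 to 8 and 6.91% of those from 8 upward were equal on all 3 arrays. The exact 5.65 of spp-23 and the exact 10.41 of the probe set shared by spp-5 and T08A9.13 belong to the brighter of these classes.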
